A study of Mus musculus with 24 samples.

Results

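The genes described here are 31 genes of sterol and fatty acid synthesis, measured in mouse melanoma and myeloid cell lines. They were chosen by name, and the array probes were found through their RefSeq transcript accessions. All 31 had at least 1 probe, out of 45547 gene and transcript names on the array. Of the 31, 17 encode enzymes of the sterol pathway, 4 encode proteins that sense sterols or switch the pathway on, 9 encode enzymes of fatty acid synthesis, desaturation and acetyl-CoA supply, and 1 encodes a sterol carrier, Stard4.

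Animal cells make cholesterol from acetyl-CoA through mevalonate, isoprenoid pyrophosphates, squalene and lanosterol. When membrane sterol falls, Scap carries the precursors of the transcription factors SREBP1 and SREBP2 (from Srebf1 and Srebf2) out of the endoplasmic reticulum, and their released fragments switch on sterol and fatty acid genes. Insig1, itself a target of these factors, holds Scap back when sterol is plentiful. Fatty acid synthesis starts from the same acetyl-CoA, which Acly makes from citrate and Acss2 from acetate.

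The study models tumour dormancy in mice that were vaccinated against their tumour. Gene expression was measured on 24 single-colour Agilent arrays (3 slides, each with arrays of all 7 lines), of which 17 carried melanoma and 7 carried myeloid RNA. The melanoma lines are B16F1-GFP-M (M, the parental line, 3 arrays), B16F1-GFP-D (D, recovered from long dormancy, 4 arrays) and 3 lines whose names start with B16F1-GFP and end in DB#1 (4 arrays), DB#2 (3 arrays) and DB#3 (3 arrays). All derive from B16F1, a mouse melanoma line, and carry green fluorescent protein. The DB lines are a later generation of dormant cells from the brain, each a line of its own, so a difference of 1 line is not a difference of dormant cells in general. The myeloid lines are named M0 (4 arrays) and J365 (3 arrays), and the labels do not say which leukemia line of the study each is. All cells were grown in culture before RNA was taken. The labels give serum-containing medium for the melanoma lines and no medium for M0 and J365. The study says that its experiments were repeated, but neither it nor the labels say whether the arrays of a line carry separate cultures, so p-values measure the spread between these samples, which may be technical.

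Signal is the log2 intensity of a gene's brightest probe minus the 75th percentile of the array, so a difference of 1 is a 2-fold change. Signals of different genes are not compared. The share of probes well above background lay between 43.6% and 53.8% on 23 arrays and was 89.9% on D replicate 3. The mean of 10 melanocyte lineage markers was 6.36 to 6.93 on the other 16 melanoma arrays and 5.85 on D replicate 3, and it was -4.83 to -4.52 on the 7 myeloid arrays. The mean of 10 myeloid and blood markers was 1.48 to 2.26 on the myeloid arrays, -3.62 to -2.97 on the 16 melanoma arrays and -1.69 on D replicate 3, where 9 of 10 were well above background. The mean of 5 fibroblast markers was -3.65 on D replicate 3 and -5.82 to -4.32 on the 16 melanoma arrays. For 6 brain markers these values were -0.44 and -1.74 to -0.86, so the rise on D replicate 3 was not particular to myeloid markers. The counts, medians and calls that use D are therefore also given without D replicate 3. In these bulk samples, fewer cells of a type and less RNA per cell cannot be told apart.

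The promoters of 3 genes are shown because 1 of them lost most signal in D (Tm7sf2), 1 lost signal in D and DB#3 (Msmo1), and 1 moved apart between the melanoma and myeloid models (Hmgcs1). Each is the 300 bases from 250 before to 50 after the gene's start, from RefSeq on GRCm38.p6, written 5′ to 3′ in the direction of the gene. Capitals mark CCAAT on either strand, a box bound by NF-Y, and TCACNCCAC on either strand, a form of the sterol regulatory element that SREBP binds.
Hmgcs1, chr13:119690101-119690400, plus strand: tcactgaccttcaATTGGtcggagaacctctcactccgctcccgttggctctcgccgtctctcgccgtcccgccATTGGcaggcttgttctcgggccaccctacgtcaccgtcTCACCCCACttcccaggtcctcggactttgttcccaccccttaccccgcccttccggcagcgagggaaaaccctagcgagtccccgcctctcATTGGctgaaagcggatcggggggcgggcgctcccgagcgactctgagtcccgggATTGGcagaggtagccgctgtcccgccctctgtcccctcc
Msmo1, chr8:64733529-64733828, minus strand: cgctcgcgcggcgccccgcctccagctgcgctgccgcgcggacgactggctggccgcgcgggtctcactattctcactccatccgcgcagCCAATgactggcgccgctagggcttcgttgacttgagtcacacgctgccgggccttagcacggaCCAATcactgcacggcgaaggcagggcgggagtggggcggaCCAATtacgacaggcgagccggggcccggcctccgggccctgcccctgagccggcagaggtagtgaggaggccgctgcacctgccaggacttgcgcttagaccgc
Tm7sf2, chr19:6067801-6068100, minus strand: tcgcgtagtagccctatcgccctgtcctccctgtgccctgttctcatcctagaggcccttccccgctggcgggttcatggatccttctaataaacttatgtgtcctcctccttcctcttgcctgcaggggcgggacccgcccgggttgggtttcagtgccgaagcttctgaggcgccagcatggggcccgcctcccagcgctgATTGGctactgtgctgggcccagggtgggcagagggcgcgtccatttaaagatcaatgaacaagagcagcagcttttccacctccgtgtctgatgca
The Hmgcs1 window holds 4 CCAAT matches and 1 TCACNCCAC match. The Msmo1 window holds 3 CCAAT matches and the Tm7sf2 window 1. Promoter windows were at hand for 24 of the 31 genes. CCAAT was found in 20 of the 24, and in all 14 sterol pathway enzymes that had a window, against 41.1% of the 27025 genes in the table. TCACNCCAC was found in 1 of the 24, Hmgcs1, against 1.44% of all genes. GGGCGG, the GC box bound by Sp1, was found in 20 of the 24 against 38.2% of all genes. A gene with several windows counted if any of them matched, no matches overlapped in the windows shown, and a match describes letters, not binding.

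The first question was how the dormant line D differed from its parent M. All 17 sterol pathway enzymes had a lower mean in D than in M, with a median log2 difference of -0.52 against -0.01 over all 20145 genes tested, of which 51.9% were below 0. Of all 31 genes, 27 were lower and the median was -0.36. The fatty acid genes moved less: 7 of 9 were lower, with a median of -0.23 and none called. Without D replicate 3, 25 of the 31 were lower with a median of -0.22, and 6 of the 9 fatty acid genes with a median of -0.12. Tm7sf2, Msmo1 and Stard4 fell and none rose, so 3 of 31 were called at an adjusted p under 0.05 (limma, Benjamini-Hochberg over all genes tested), against 2.97% of all genes. For 10 of the 31 genes, all 4 D arrays were below all 3 M arrays (Pmvk, Idi1, Fdps, Fdft1, Sqle, Lss, Tm7sf2, Msmo1, Nsdhl and Stard4), against 4.58% of all genes. Leaving out D replicate 3 can add genes to this count but cannot remove any, so it is no check on these 10. It added none of the 31, and the share of all genes was then 6.10%.

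**Figure D1:**
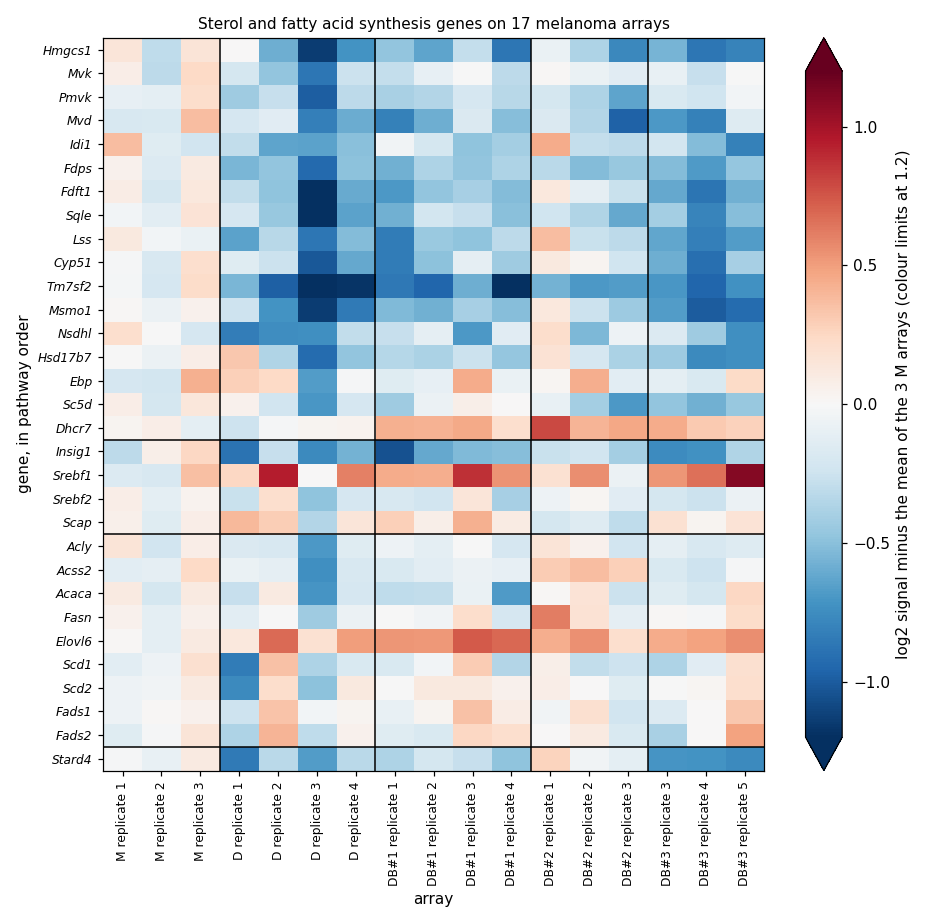
Log2 signal of each of the 31 genes (y axis, in pathway order) on each of 17 melanoma arrays (x axis), minus the mean of the 3 M arrays; colour shows the difference and horizontal lines separate sterol enzymes, sterol sensing genes, fatty acid genes and Stard4. The upper block is mostly blue in D, DB#1 and DB#3, deepest on D replicate 3, with Dhcr7 red in the DB lines. The fatty acid block is paler on most arrays, with Elovl6 red, and bluer on D replicates 1 and 3.

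Tm7sf2 encodes a sterol reductase that acts on the product of Cyp51. Its signal on the M arrays was 2.40, 2.22 and 2.64, and on the D arrays 1.87, 1.44, 1.04 and 1.25, so every D array was below every M array. The difference was -1.02 ± 0.18 (SE), a 2.03-fold fall, with an adjusted p of 0.00207 by limma. Within slides it was -0.99, -1.18 and -1.15. Without D replicate 3 it was -0.90, and Tm7sf2 was then the 1 member of 31 still called, against 3.16% of all genes.

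Msmo1 encodes the methylsterol oxidase that removes methyl groups from the sterol ring. Its signal was 5.83, 5.75 and 5.87 in M and 5.57, 5.11, 4.68 and 4.97 in D, again with no overlap. The difference was -0.74 ± 0.19, a 1.67-fold fall, with an adjusted p of 0.0401 by limma. The call held when D replicate 1 was left out and was lost in each of the 6 other fits that left out 1 array (each M array, D replicates 2, 3 and 4), where the difference stayed between -0.90 and -0.60 over all 7.

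Stard4 encodes a soluble carrier that moves cholesterol between membranes. Its signal was 1.98, 1.91 and 2.10 in M and 1.15, 1.67, 1.33 and 1.68 in D. The difference was -0.54 ± 0.14 with an adjusted p of 0.036 by limma, and every D array was below every M array. The gene's other readable probe gave 0.08, so its probes disagreed and the fall rests on the brightest. The call was lost without any M array, without D replicate 1 and without D replicate 3.

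Fdps, Fdft1 and Insig1 were also lower in D and were not called without the slide block. Fdps, which makes farnesyl pyrophosphate, read 6.73, 6.52 and 6.79 in M and 6.13, 6.21, 5.74 and 6.18 in D (difference -0.61, adjusted p = 0.0574 by limma). Fdft1, squalene synthase, read 3.79, 3.50 and 3.83 in M and 3.41, 3.22, 2.50 and 3.11 in D (-0.65, adjusted p = 0.09 by limma). Insig1, the sterol-dependent anchor of Scap, had means of 0.92 ± 0.28 (SD, n = 3) in M and 0.29 ± 0.27 (SD, n = 4) in D. Without D replicate 3 the differences were -0.50 for Fdps, -0.46 for Fdft1 and -0.58 for Insig1, with adjusted p-values of 0.132, 0.191 and 0.157 by limma. With slide as a block, 10 of the 31 genes fell and none rose, against 3.33% of all genes for falls. They were Tm7sf2, Msmo1, Stard4, Pmvk, Fdps, Fdft1, Sqle, Cyp51, Nsdhl and Insig1. With the block and without D replicate 3, 3 of 31 fell, against 2.64% of all genes. Without D replicate 3 and without the block, 16 of the 17 sterol enzymes were lower and their median was -0.43. D replicate 3 had the lowest signal of the D arrays for 15 of the 17 enzymes, beside the marker values above, and the part of that array's other features in the result was not tested. Without any scaling, 15 of 17 enzymes were lower and the median over all genes moved to 0.17.

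**Figure D2:**
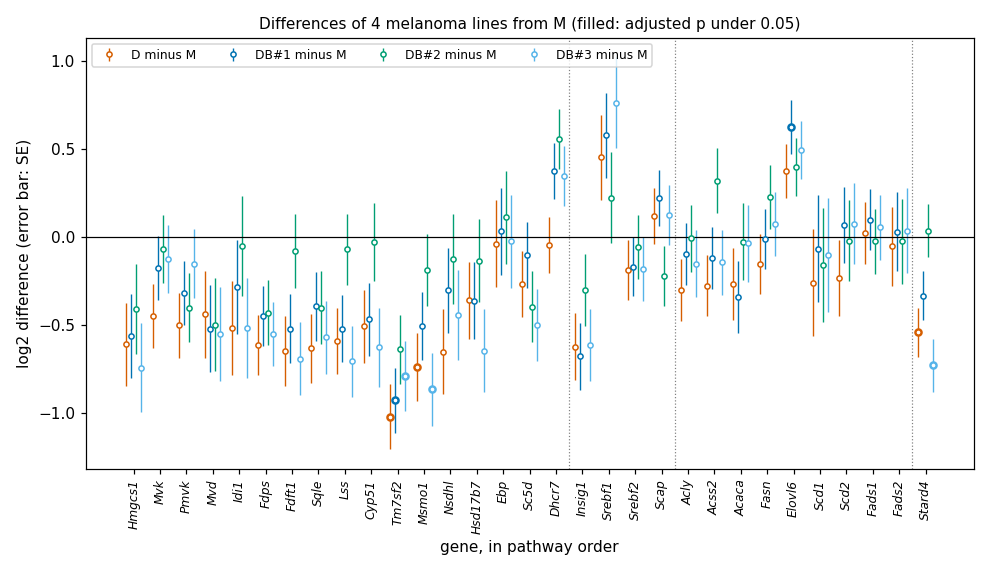
Log2 difference from M with its standard error (y axis) for D, DB#1, DB#2 and DB#3 (colours), for the 31 genes in pathway order (x axis); filled points have an adjusted p under 0.05. The sterol enzymes lie mostly below 0, DB#2 nearest to it, while Srebf1 and Elovl6 lie above 0 in every line.

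The second question was whether the brain-derived lines shared this profile. Each was compared with the same 3 M arrays, so these comparisons share their controls and their likeness is no separate evidence. In DB#1, 15 of 17 sterol enzymes were lower, with a median of -0.39, where 44.6% of all genes were lower. In DB#3, 16 of 17 were lower with a median of -0.55 (45.7% of all genes), and in DB#2, 15 of 17 with a median of -0.13 (47.7%). The slides ran opposite ways in DB#2, where 15 of 17 were lower on slides 1 and 3 (medians -0.32 and -0.45) and 13 of 17 higher on slide 2 (median 0.22). Medians over all genes were 0.04, 0.03 and 0.02 in DB#1, DB#3 and DB#2. Without scaling, 7 of 17 were lower in DB#2 and the median was 0.10, beside 0.25 over all genes. Fatty acid genes had medians of -0.01, 0.03 and -0.02 in DB#1, DB#3 and DB#2.

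In DB#1, 2 of 31 genes were called against 3.69% of all genes. Tm7sf2 fell by 0.93 (SE 0.18, adjusted p = 0.00364 by limma), with 1.56, 1.47, 1.83 and 1.11 on the DB#1 arrays. Elovl6, the elongase that extends palmitate, rose by 0.62 ± 0.15 (SE, adjusted p = 0.0213 by limma). Its signal was 2.59, 2.45 and 2.68 in M and 3.11, 3.09, 3.31 and 3.27 in DB#1, with no overlap. The Elovl6 call was lost without M replicate 1, M replicate 2, DB#1 replicate 3 or DB#1 replicate 4, while Tm7sf2 kept its call in all 7 such fits. All 4 DB#1 arrays were below all M arrays for 10 genes, against 7.86% of all genes.

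In DB#3, 3 of 31 genes were called, against 2.76% of all genes, and all 3 fell. Stard4 read 1.29, 1.28 and 1.23, a difference of -0.73 ± 0.15 (SE, adjusted p = 0.00576 by limma), and its other probe gave -0.12. The Stard4 call held in all 6 fits that left out 1 array. Msmo1 read 5.15, 4.82 and 4.90 (-0.86 ± 0.21, adjusted p = 0.0214 by limma). Tm7sf2 read 1.72, 1.47 and 1.69 (-0.79 ± 0.20, adjusted p = 0.0294 by limma). Msmo1 kept its call only without DB#3 replicate 3 and Tm7sf2 only without M replicate 2, and each lost it in the 5 other such fits. For 12 genes all DB#3 arrays were below all M arrays, against 8.44% of all genes. Hmgcs1, which makes the precursor of mevalonate, was among them, at 4.44, 4.13 and 4.19 against 5.14, 4.69 and 5.15 in M.

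In DB#2 none of the 31 genes was called by limma, against 3.44% of all genes, and 4 had an unadjusted p under 0.05, against 12.0%. The smallest p-values belonged to Dhcr7 and Tm7sf2. Dhcr7, the last reductase of cholesterol synthesis, read 1.60, 1.64 and 1.45 in M and 2.35, 1.96 and 2.02 in DB#2 (0.55 ± 0.17, adjusted p = 0.088 by limma). Tm7sf2 read 1.86, 1.73 and 1.75 (-0.64 ± 0.20, adjusted p = 0.0946 by limma). With slide as a block both were called, against 5.31% of all genes, with adjusted p-values of 0.0301 and 0.0205 by limma.

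Some genes went against the sterol enzymes in the same lines. Dhcr7 was higher than every M array on all DB arrays, with means of 1.93, 2.11 and 1.90 in DB#1, DB#2 and DB#3 against 1.56 in M and 1.51 in D. Of all genes, 12.1% in DB#1, 12.6% in DB#2 and 12.5% in DB#3 were likewise above every M array. Srebf1 had means of 3.80 in M, 4.25 in D, 4.38 in DB#1, 4.02 in DB#2 and 4.56 in DB#3. None of the Srebf1 differences was called without the slide block, and with it those of DB#1 (adjusted p = 0.0306 by limma) and DB#3 (0.0113) were. Srebf2, which serves the sterol genes most directly, differed little, with means of 1.40 in M and 1.21 to 1.34 in the other melanoma lines. Elovl6 was above every M array in D, where 3.86% of all genes were, and in each DB line, with the shares given for Dhcr7.

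The third question was how the DB lines differed from D. In DB#2, 26 of 31 genes were higher than in D (54.3% of all genes) and 3 of 31 were called, all higher, against 6.34% of all genes. Stard4 read 2.26, 1.95 and 1.88 in DB#2, 0.58 ± 0.14 above D (SE, adjusted p = 0.014 by limma). Dhcr7 was 0.60 ± 0.16 above D (adjusted p = 0.025 by limma). Acss2, which makes acetyl-CoA from acetate, read 0.25, 0.31 and 0.23 in DB#2 and -0.14, -0.16, -0.79 and -0.25 in D (0.60 ± 0.17, adjusted p = 0.0447 by limma). Acss2's other probe gave 0.05, and its call held only without D replicate 1. Stard4 lost its call without DB#2 replicate 1, and Dhcr7 without DB#2 replicate 1 or 3. Of the sterol enzymes 15 of 17 were higher in DB#2, with a median of 0.38. By slide the medians were 0.18 on slide 1 (10 of 17 higher), 0.95 on slide 2 (all 17) and 0.12 on slide 3 (12 of 17). Without D replicate 3, 13 of 17 enzymes were higher, with a median of 0.24. Over the 31 genes, 22 were then higher with a median of 0.10, down from 0.23. Without that array 3 of 31 were called, against 6.92% of all genes: Stard4 and Dhcr7 were higher, and Scap was lower in DB#2 (-0.50, adjusted p = 0.0308 by limma).

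No gene of the 31 was called by limma in DB#1 against D (0.475% of all genes) or in DB#3 against D (0.369%), and 1 gene in each had an unadjusted p under 0.05, against 4.20% and 4.96%. That gene was Dhcr7 in both, 0.42 ± 0.15 higher in DB#1 and 0.39 ± 0.16 higher in DB#3. The second smallest p belonged to Elovl6 in DB#1 (0.25) and to Pmvk, phosphomevalonate kinase, in DB#3 (0.35). Without D replicate 3 none was called either, with 1 gene at an unadjusted p under 0.05 in DB#1 (against 3.64% of all genes) and 2 in DB#3 (against 4.30%), and the Elovl6 and Pmvk differences were 0.19 in both. Against the mean of DB#1 and DB#3, 1 of 31 genes was called in DB#2, against 7.14% of all genes. It was Stard4, 0.57 ± 0.13 higher (adjusted p = 0.007 by limma), a call lost without DB#2 replicate 1. With slide as a block 5 rose (Fdft1, Lss, Cyp51, Acss2 and Stard4) and 2 fell (Srebf1 and Scap), against 11.9% of all genes.

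**Figure D3:**
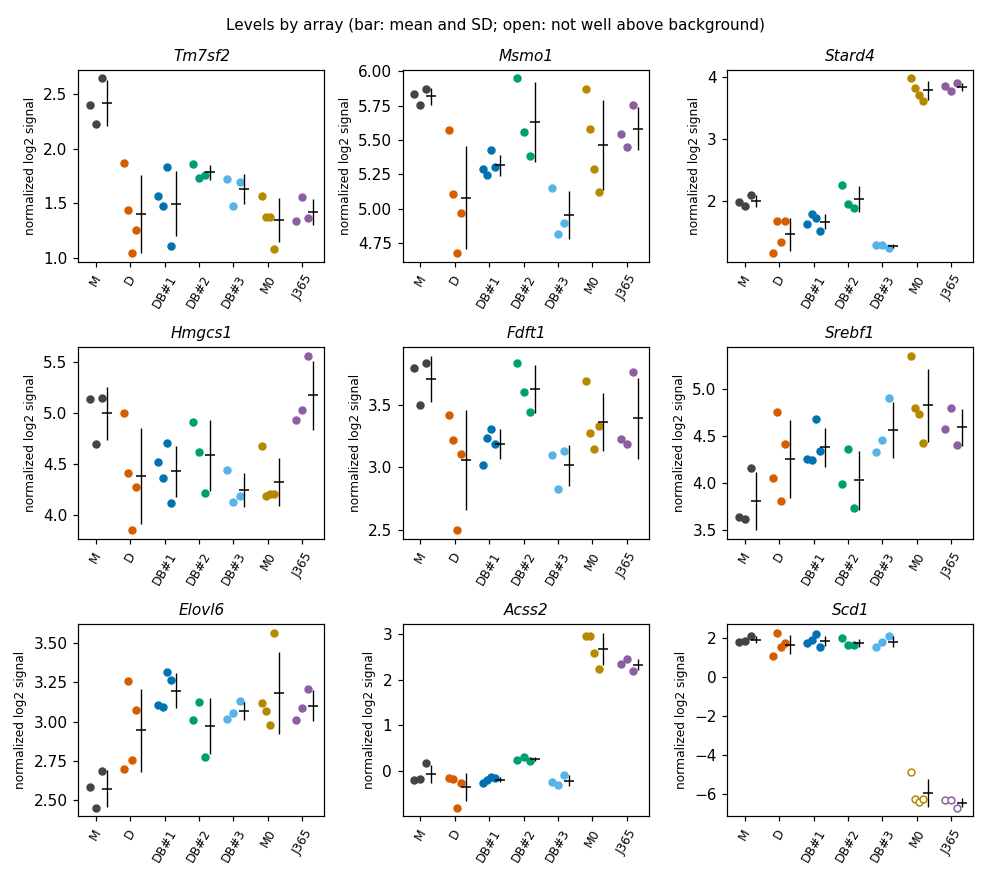
Normalized log2 signal (y axis, a scale for each gene) on every array of the 7 lines (x axis) for 9 of the genes, with the mean and SD beside the points; open points are not well above background. M lies above D, DB#1 and DB#3 for Tm7sf2, Stard4 and Fdft1, and Scd1 is near 2 in melanoma and under -4 in the myeloid lines.

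The same question was asked of the myeloid lines. In J365 against M0, none of 30 tested genes was called by limma, against 1.47% of all genes, and 2 had an unadjusted p under 0.05, against 8.68%. The sterol enzymes had a median of 0.07, with 13 of 17 higher (52.4% of all genes), a split that turned to 8 of 17 with the percentile taken over probes detected on all arrays. On slide 1, 16 of 17 were lower in J365 (median -0.31), on slide 2 all 17 were higher (0.52) and on slide 3, 10 of 17 were lower (-0.04). Hmgcs1 read 4.67, 4.19, 4.21 and 4.21 in M0 and 4.93, 5.02 and 5.56 in J365, with no overlap (0.85 ± 0.24, adjusted p = 0.103 by limma). Insig1 read -0.11, -0.48, -0.61 and -0.55 in M0 and -0.97, -0.64 and -1.22 in J365 (-0.50 ± 0.19, adjusted p = 0.336 by limma). Hmgcs1 passed under quantile normalization, no scaling, the other percentile and array weights.

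The difference between the models, D minus M less J365 minus M0, asked whether D differed from its parent in another way than J365 from M0. All 17 sterol enzymes were below 0, as were 50.4% of all genes, with a median of -0.53 beside -0.0039 over all genes. The median was -0.09 on slide 1, where 6 of 17 were above 0, -1.17 on slide 2 and -0.49 on slide 3. Slide 2 holds D replicate 3 and J365 replicate 4. On that slide the median was -0.83 for D minus M and 0.52 for J365 minus M0. Without D replicate 3 all 17 were below 0, with a median of -0.39. Of 31 genes, 2 were called against 2.08% of all genes. Hmgcs1 stood at -1.46 ± 0.34 (SE, adjusted p = 0.0223 by limma), made of -0.61 in melanoma and 0.85 in myeloid cells. Neither part was called by itself. Without D replicate 3 the melanoma part was -0.43 (adjusted p = 0.401 by limma). Tm7sf2 stood at -1.09 ± 0.26 (adjusted p = 0.0298 by limma), made of -1.02 and 0.07. The Hmgcs1 call was lost without M replicate 1, M replicate 3, M0 replicate 2 or J365 replicate 4, and the Tm7sf2 call in 9 of 14 fits that left out 1 array. Neither call was lost without D replicate 3.

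The largest differences were between the cell types. In M against M0, 12 of 31 genes were higher and 9 lower, against 58.5% of all genes called, so the count of 21 is near the background. Scd1, the desaturase that makes oleate, was well above background on all melanoma arrays (1.79, 1.86 and 2.11 in M) and on none of the myeloid arrays, and its signal in M was at least 64.5-fold higher than in M0. This bound sets the mean of M against the mean, over the M0 arrays, of the lowest readable signal or the probe's own, whichever was higher. Scd2, a related desaturase, differed between M and M0 by less than the standard error of the difference (0.03 ± 0.21, SE), with a mean of 7.03 ± 0.09 (SD, n = 3) in M.

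Other genes higher in M were Insig1 (1.36 ± 0.19), Ebp, a sterol isomerase (1.36 ± 0.25), Fasn, fatty acid synthase (1.33 ± 0.17), and Cyp51, lanosterol demethylase (1.26 ± 0.21). Genes higher in M0 were Acss2 (-2.73 ± 0.17, 6.64-fold), Stard4 (-1.79 ± 0.14, 3.47-fold), the polyunsaturated fatty acid desaturases Fads2 (-1.19 ± 0.23) and Fads1 (-1.04 ± 0.17), and Srebf1 (-1.02 ± 0.24). Acss2 read 2.94, 2.94, 2.59 and 2.22 in M0 against -0.19, -0.17 and 0.18 in M. Stard4 read 3.98, 3.83, 3.72 and 3.62 against 1.98, 1.91 and 2.10. Each of these 9 genes had an adjusted p under 0.05 by limma in every fit that left out 1 array.

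**Figure D4:**
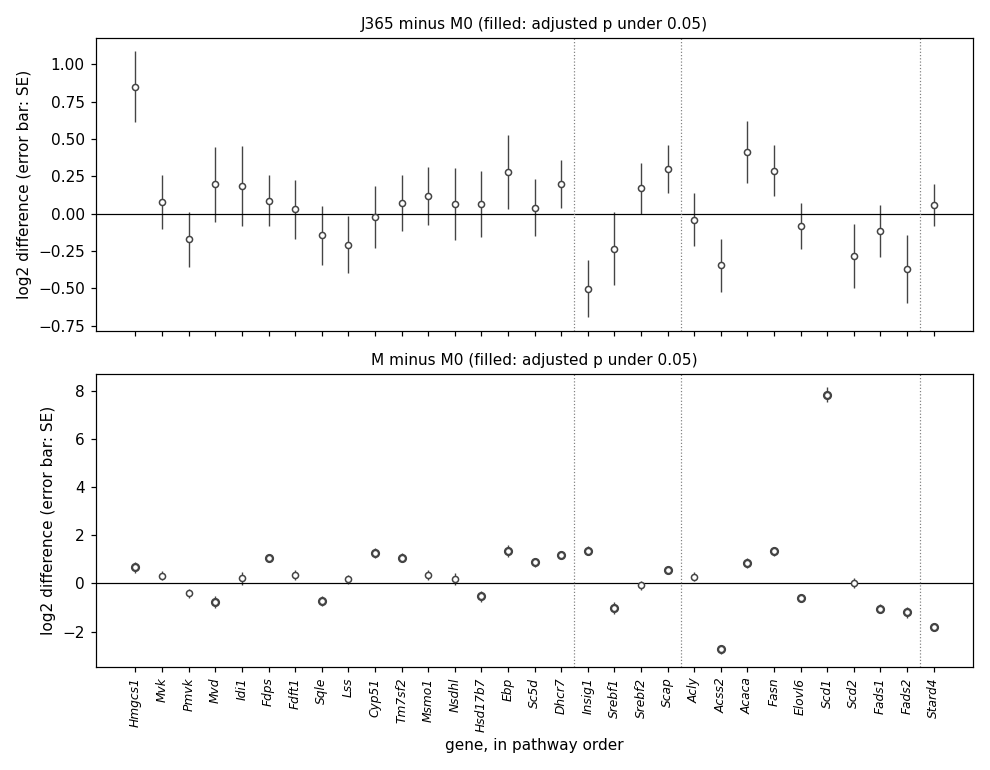
Log2 difference with its standard error (y axis, different scales) for J365 minus M0 (upper panel) and M minus M0 (lower panel), for the genes in pathway order (x axis); filled points have an adjusted p under 0.05. No point is filled above, and Scd1 (measured difference 7.84, not well above background in M0) and Acss2 (-2.73) lie farthest from 0 below.

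Genes outside the 31 in neighbouring steps moved less evenly. None of the 12 isoprenoid branch genes was called in D or in any DB line against M. Of 10 tested genes of sterol uptake, sensing and SREBP processing, none was called against M in any of these lines. Among 6 tested genes of sterol export, Abca1, the cholesterol exporter, fell in D (-0.83 ± 0.22, adjusted p = 0.0449 by limma), a call that held in 2 of 7 fits that left out 1 array, among them the fit without D replicate 3 (-0.92, adjusted p = 0.0328 by limma). In DB#2 against M, Nceh1, a cholesteryl ester hydrolase, rose by 1.34 ± 0.29 and Hadhb, of mitochondrial fatty acid oxidation, by 0.73 ± 0.16. Thrsp, a regulator of lipogenesis, was at least 2.20-fold higher in DB#2 than in M, where it was not well above background. In DB#1, Stard3 (0.57), Slc25a1, the citrate carrier (0.64), and Cpt1c (1.13) rose. In DB#2 against D, Nceh1 (1.03) and Hadhb (0.59) were higher. Against the mean of DB#1 and DB#3, Npc1, the lysosomal cholesterol exporter, was 0.63 higher in DB#2, Hadhb 0.47 and Pdss2, of ubiquinone synthesis, 0.43. Most of these calls were lost in some fits without 1 array: Stard3 and Slc25a1 each kept theirs in 1 of 7 such fits, Nceh1 in 1 of 7 and Hadhb in 3 of 7 against D (both lost without D replicate 3), Npc1 in 1 of 10 and Hadhb, against that mean, in 0 of 10. Me1, malic enzyme, fell by 1.84 ± 0.29 in J365 against M0 (adjusted p = 0.000633 by limma), the 1 gene of these lists called there. In M against M0, Apoe, the lipoprotein component, was 7.79 higher in M, and Abcg1, a sterol exporter not well above background in M, was at least 64.5-fold higher in M0.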

How the data were processed

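Total RNA of 7 mouse lines was labelled with cyanine 3 and hybridised to 24 whole-mouse Agilent arrays, 1 sample each, on 3 slides that each held every line. The authors deposited Agilent Feature Extraction output (version 10.7.3.1 per the labels), an intensity on a linear scale (gProcessedSignal), background-corrected and not scaled between arrays. All 1511424 values of the deposited series table were equal to it (relative tolerance 1e-06).

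Outlier spots were left out, spots of a probe averaged, and log2 intensity minus the array's 75th percentile taken. The brightest of a gene's probes was used. Of 56488 probes, 32917 were named by unversioned accession against RefSeq (GRCm38.p6). The array's own annotation is mm9, so the table gave names only. The 31 genes had 49 probes. No spot was saturated, and no 2 arrays held identical values (0 pairs).

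Lines were compared with limma 3.58.1 in R 4.3.3 (lmFit and eBayes on all 24 arrays together, with lines as the terms, which leaves 17 degrees of freedom), since the study names no test for the arrays. Slide was not a term of this fit, so its share of the variance within lines (57.1%) stayed in the error. Fits with slide as a block are given as an alternative. A gene was tested if well above background on every array of at least 1 line compared. P-values were adjusted by Benjamini-Hochberg within each comparison, with a threshold of 0.05. The script was tested on simulated data in which 200 genes differed by a log2 of 1 between D and M. It called 87 of them (43.5%) and made 0 false calls, so a gene that was not called may still differ. The simulated noise was independent between genes and arrays and held no slide effect. These rates therefore need not hold for the real arrays. The genes and lists were chosen with earlier results of these data known. Named with statistics were called members (up to 5 each way), the 2 smallest p-values where none was called, and up to 2 called genes per other list. Some called genes of the other lists are not reported here. Alternatives covered background correction, scaling, dim-probe filter, probe rule, slide and replicate blocks, arrays in the fit, array weights and leaving out each array. The number of arrays, 3 or 4 a line, limits precision.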

Additional observations from a re-analysis of the deposited data

Results flagged for a closer look

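Among 93 sets of 4 arrays of 1 gene in 1 line, 8 had an array far from the others by Dixon's test, and chance gives about 1 in 20. On D replicate 3, Fdps read 5.74 (others 6.13 to 6.21), Acly 5.26 (5.76 to 5.81) and Acss2 -0.79 (-0.25 to -0.14), all lowest on that array. On M0 replicate 1, Hmgcs1 read 4.67 (4.19 to 4.21), Cyp51 3.03 (2.50 to 2.57) and Scd1 -4.86 (-6.36 to -6.22), where Scd1 was not well above background. In DB#1, Ebp read 6.25 on replicate 3 (5.65 to 5.72) and Dhcr7 1.76 on replicate 4 (1.97 to 2.01).

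The contrast of D with M differed from that of J365 with M0 for Hmgcs1 (-1.46) and Tm7sf2 (-1.09), tested as an interaction in limma.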

How the results depend on the processing

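Counts of called genes moved in many settings, and 3 medians of the 31 genes changed sign. In DB#2 against M the median went to 0.17 without scaling and to 0.0079 without DB#2 replicate 3. In DB#3 against D it went to -0.15 without scaling, -0.04 by quantile normalization, -0.02 by the percentile over probes detected on all arrays, -0.11 with array weights and -0.04 without D replicate 3. In J365 against M0 it went to -0.03 by quantile, -0.01 by the other percentile, -0.11 with the replicate block, -0.004 with array weights, -0.03 without M0 replicate 3 and -0.09 without J365 replicate 4. Counts are given in the order D, DB#1, DB#2 and DB#3 against M. Quantile normalization gave 8, 7, 4 and 9, the percentile over probes detected on all arrays 7, 7, 1 and 11, and slide as a block 10, 4, 2 and 6. The block also raised the shares of all genes called, from 2.97%, 3.69%, 3.44% and 2.76% to 5.38%, 5.62%, 5.31% and 3.93%. Shares under the other settings are not given in this paragraph, so its counts alone do not show a gain particular to the 31 genes. Array weights gave 8 in DB#1, 2 in DB#2 and 14 in DB#3, and no scaling 1 in D and 1 in DB#2. No filter on dim probes gave 1 in D, 1 in DB#1 and 1 in DB#3. The mean over probes gave 4 in DB#1 and 1 in DB#2. Fitting the compared lines alone gave 0 in D. Normexp on median signals, chosen after seeing the data because the planned mean signal column could not be used (that setting was not run), gave 1 in DB#1 and 1 in DB#2. In DB#2 against D the count was 5 with slide as a block, against 11.5% of all genes. By quantile and by the other percentile it was 5. It was 1 without scaling, 1 with the mean over probes, 0 without the filter and 0 in the lines alone. Against the mean of DB#1 and DB#3 it was 6, 7 and 7 by quantile, the other percentile and no scaling, 2 with the mean over probes, 7 with the slide block, 5 in the lines alone and 8 with array weights. In J365 against M0 it was 1 by quantile, 1 by the other percentile, 1 without scaling and 3 with array weights. The difference between models fell to 0 without the filter and 0 in the lines alone. Leaving out 1 array gave 1 to 5 in D, 1 to 2 in DB#1, 0 in DB#2 and 1 to 2 in DB#3 against M, 0 in DB#1 and DB#3 and 0 to 5 in DB#2 against D, 0 to 1 against the mean, 0 in J365, 18 to 22 in M against M0 and 0 to 3 between models. The highest D count came without D replicate 1. The causes were not tested.

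With the replicate block the count was 1 in DB#2 against M, 0 in DB#3 against M, 0 against the mean of DB#1 and DB#3 and 0 between models. The numbers did not pair the arrays: over 49 same-numbered pairs the correlation of deviations was -0.80 to 0.91, 23 of them were over 0.1, and 6 of 22 numbered arrays matched their own number best. Arrays of a slide correlated more (mean 0.49), and slide held 57.1% of the variance within lines.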
